A study of Mus musculus with 12 samples.

Results

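The effect of losing Ezh2 was followed in LSK cells. This bone marrow fraction lacks lineage markers, carries Sca-1 and c-Kit, and holds haematopoietic stem cells and multipotent progenitors. Of the 12 one-colour arrays of the study, 4 carry this comparison: the Ezh2-/- and the Tet2KD/KD Ezh2-/- (double mutant) LSK arrays, set against the wild-type and the Tet2KD/KD (Tet2 knockdown) LSK arrays. Each Ezh2-deficient array was paired with the array of the same Tet2 genotype, so Ezh2-/- was read against wild-type and the double mutant against Tet2KD/KD, and a gene counted only where both pairs moved the same way. The cells had been sorted from recipient mice whose marrow was rebuilt from fetal liver cells of these genotypes. There was 1 array for each genotype. The labels used here do not give the number of mice behind an array or the way in which Ezh2 was deleted, so the tests measure the spread between these pairs and not between mice. The other arrays were 2 of LSK cells from double mutant cells with disease, 1 labelled MDS/MPN (myelodysplastic/myeloproliferative) and 1 labelled RAEB (refractory anaemia with excess blasts), and 6 of granulocyte-macrophage progenitors (GMPs).

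Ezh2 is the main catalytic subunit of Polycomb repressive complex 2 (PRC2), which methylates lysine 27 of histone H3 and keeps target genes silent. PRC2 acts with PRC1, and both are known for holding developmental and lineage genes off in stem cells until a lineage is chosen. Tet2 oxidises methylated cytosine in DNA, and its loss is a frequent early event in human myeloid neoplasms.

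All 8 LSK identity markers lay well above background on each of the 4 arrays, with summed signals of 425 on Ezh2-/- and 400.1 on double mutant arrays, against 347 on wild-type and 439 on Tet2KD/KD arrays, in units of each array's 75th percentile. The Ezh2 probe read 2.82 on the Ezh2-/- and 2.65 on the double mutant array, against 2.76 on wild-type and 2.50 on Tet2KD/KD, as log2 signal relative to the array's 75th percentile, the scale of every level below. Whether this probe lies inside the deleted segment is not known here, so it checks nothing about the deletion. Tet2 read 0.12 on the Ezh2-/- and -0.79 on the double mutant array, against 0.44 on wild-type and -1.61 on Tet2KD/KD. Xist, which coats the silenced X chromosome of female cells, read -6.15 on the Ezh2-/- and 2.52 on the double mutant array, against 2.57 on wild-type and -5.95 on Tet2KD/KD, so each pair set cells of opposite sex against each other, in opposite directions. Neutrophil marker signal summed to 19.3 on the Ezh2-/- and 10.8 on the double mutant array, against 91.6 on wild-type and 20.5 on Tet2KD/KD, so the wild-type array stood apart. The second pair does not use that array. With the wild-type array left out of the 8-array limma fit 0 genes were called, as when any other of the 4 LSK arrays was left out, and the second pair alone had 736 genes changed at least 2-fold.

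Few genes followed Ezh2 loss in both pairs. Of 12980 genes tested, 118 rose (0.909%) and 81 fell (0.624%), which is 199 (1.53%) at a limma adjusted p under 0.05 with the same sign in both pairs. Each gene had 1 residual degree of freedom, and limma adds a prior on the spread that all genes share. That prior had infinite degrees of freedom here, so every gene got the same standard error of 0.399. A call therefore amounts to a mean log2 difference of at least 1.34 in size. The verbs rose and fell below refer to these calls. By size alone, 110 genes (0.847%) were at least 2-fold higher and 76 (0.586%) at least 2-fold lower in both pairs, 186 (1.43%) together, and 64 moved at least 2-fold in opposite directions in the pairs. The 2 pairs shared a sign for 36.7% of all genes, and the median gene lay at 0.13 in Ezh2-/- minus wild-type and at -0.15 in double mutant minus Tet2KD/KD. Separate fits also used the GMP arrays (8 arrays) or the diseased LSK arrays (6 arrays), and there the spread differed between genes. The GMP arrays add the disagreement of the GMP pairs to that spread. The diseased arrays add the difference between MDS/MPN and RAEB. An adjusted p from these fits is thus not a measure of spread in the 4 LSK arrays alone. Both fits include the same 4 arrays and are not independent of the calls. Of the 199 genes 49 passed in each, and 35 passed in all 3 fits, 26 higher and 9 lower. On the 4 LSK arrays sex runs along the disagreement between the pairs, so sex and other disagreement cannot be told apart. With a sex term the 8-array limma fit gave 260 calls, which held all 199. After quantile normalisation the prior had 3.19 degrees of freedom instead, so the standard errors differed between genes. With that setting 0 genes were called, although 199 were at least 2-fold changed in both pairs. Comparing 2 arrays with 2 in a single gene by exact permutation, with the pairing ignored, cannot give a two-sided p below 0.333. Keeping the pairs would leave fewer arrangements and so a higher limit.

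**Figure D1:**
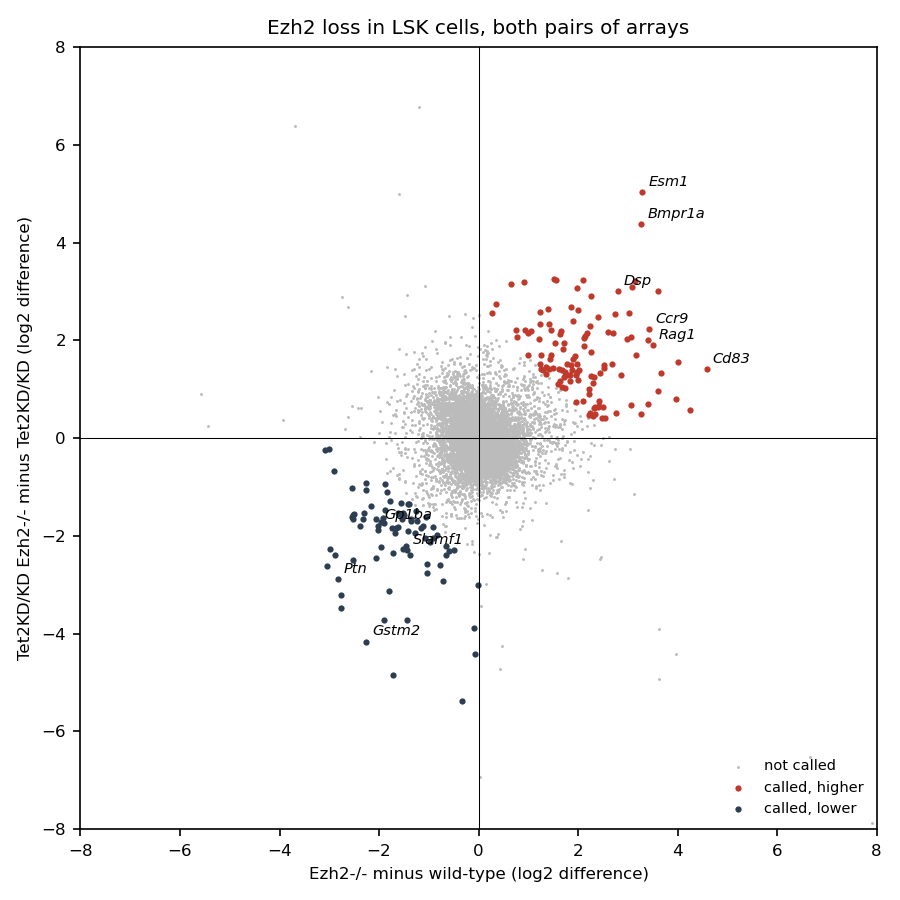
Each point is 1 of the 12980 genes, with the log2 difference Ezh2-/- minus wild-type on the horizontal axis and double mutant minus Tet2KD/KD on the vertical axis; red points are the 118 genes called higher and dark blue points the 81 called lower. Called genes lie at the upper right and lower left, while sex-linked genes lie far out at the upper left and lower right, some on or outside the frame.

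Bmpr1a and Dsp, the genes that marked Ezh2 loss, were at background without it and measurable with it. Bmpr1a, a type I receptor for bone morphogenetic proteins (BMPs), read -2.94 on the Ezh2-/- and -1.78 on the double mutant array, against -6.20 on wild-type and -6.15 on Tet2KD/KD. It was at least 3.29-fold higher with Ezh2 loss (limma log2 difference 3.82, adjusted p = 0.0115 in the 8-array and 0.0173 in the 6-array limma fit). Dsp encodes desmoplakin, which ties desmosomes to intermediate filaments. It read -2.74 on the Ezh2-/- and -2.0 on the double mutant array, against -5.53 on wild-type and -5.02 on Tet2KD/KD, which is at least 3.26-fold higher (limma log2 difference 2.90, adjusted p = 0.018 in the 8-array and 0.0173 in the 6-array limma fit). For both genes the 2 Ezh2-deficient arrays lay above the 2 others, where the probes were not well above background. Both were chosen as markers with results of these arrays known, so neither this separation nor the calls are separate evidence. Both passed the filter on background only through the Ezh2-deficient arrays. With normexp background correction the log2 difference was 0.79 for Bmpr1a and 0.54 for Dsp, so these sizes depend on how background is handled. A second Dsp probe was at background on all 4 arrays and differed by -0.11 and -0.23. In the diseased double mutant LSK arrays, Bmpr1a read -0.61 (MDS/MPN) and -0.76 (RAEB), and Dsp read -1.30 and -1.71.

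Promoters of 4 genes are shown to set CpG content beside the genes described, and were picked with values known: Bmpr1a and Dsp as the marker genes, Ccr9 from the lymphoid genes that rose and Gp1ba from the platelet genes that fell. Each is the 250 bases before the start of the gene, 5′ to 3′ on the gene's strand, from RefSeq on build GRCm38.p6, with CpG dinucleotides in capitals.
Bmpr1a (chr14:34502547-34502796, minus strand): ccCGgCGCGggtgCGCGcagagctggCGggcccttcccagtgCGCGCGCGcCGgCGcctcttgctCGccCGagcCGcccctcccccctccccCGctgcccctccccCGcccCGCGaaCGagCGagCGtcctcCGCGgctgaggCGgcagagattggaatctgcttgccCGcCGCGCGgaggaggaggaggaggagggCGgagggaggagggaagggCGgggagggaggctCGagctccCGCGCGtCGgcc
Dsp (chr13:38151044-38151293, plus strand): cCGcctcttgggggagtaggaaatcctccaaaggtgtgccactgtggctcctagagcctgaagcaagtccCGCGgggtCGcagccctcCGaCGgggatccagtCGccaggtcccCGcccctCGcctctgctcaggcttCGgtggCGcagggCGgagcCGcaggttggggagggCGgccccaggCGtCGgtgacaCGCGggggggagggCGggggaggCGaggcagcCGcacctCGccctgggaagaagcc
Ccr9 (chr9:123766961-123767210, plus strand): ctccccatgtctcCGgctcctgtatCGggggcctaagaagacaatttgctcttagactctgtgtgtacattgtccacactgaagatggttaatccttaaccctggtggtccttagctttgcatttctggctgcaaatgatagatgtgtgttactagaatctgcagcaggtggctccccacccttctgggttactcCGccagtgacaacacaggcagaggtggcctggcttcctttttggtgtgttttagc
Gp1ba (chr11:70638872-70639121, plus strand): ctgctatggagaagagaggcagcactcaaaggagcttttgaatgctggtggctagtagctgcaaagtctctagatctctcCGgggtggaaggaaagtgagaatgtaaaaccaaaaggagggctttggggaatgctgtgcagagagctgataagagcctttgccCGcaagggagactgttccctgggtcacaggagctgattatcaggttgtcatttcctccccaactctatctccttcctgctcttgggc
The motif counted was CG, which reads the same on both strands. Bmpr1a held 36 CpGs, a number reached by 2.93% of the 27025 genes with a promoter in the table, and Dsp held 22, reached by 16.3%. Ccr9 held 3, reached by 72.0%, and Gp1ba held 2, reached by 81.7%, against a median of 6. These counts describe 4 chosen promoters and were not compared between the genes that rose and those that fell.

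The gene with the largest difference was Esm1, which encodes endocan, a proteoglycan secreted by endothelium. It read -0.35 on the Ezh2-/- and -0.03 on the double mutant array, against -3.64 on wild-type and -5.07 on Tet2KD/KD, a limma log2 difference of 4.16. Chl1, a neural adhesion molecule of the L1 family, read -1.30 on the Ezh2-/- and -1.34 on the double mutant array, against -4.44 on wild-type and -4.55 on Tet2KD/KD, at least 6.75-fold higher. A second Chl1 probe gave pair differences of 3.19 and 3.63. Stag3, a cohesin subunit of meiotic cells, read -2.35 on the Ezh2-/- and -2.77 on the double mutant array, against -5.96 on wild-type and -5.78 on Tet2KD/KD, at least 2.86-fold higher. Fam169a was at least 5.14-fold higher, with pair differences of 3.09 and 3.09, and the tubby-like gene Tulp4 at least 2.05-fold higher, with 3.03 and 2.55. Septin10, of the septin cytoskeletal GTPases, read -0.01 on the Ezh2-/- and 0.14 on the double mutant array, against -2.40 on wild-type and -2.34 on Tet2KD/KD. Cnn3, an actin-binding calponin, read 3.80 on the Ezh2-/- and 2.61 on the double mutant array, against 1.62 on wild-type and 0.46 on Tet2KD/KD. For each of these genes both Ezh2-deficient arrays lay above both others. They were picked by their differences on the same arrays, which favours such a separation, and its share over all genes is not given here. Among the 14 genes with the largest weaker-pair difference upward, 8 were at background on both Ezh2-replete arrays, and 13 were called in all 3 fits. The exception was Ifi214, an interferon-inducible gene, which lay at -4.21 on the Ezh2-/- and -4.07 on the double mutant array, close to the lowest measurable signal, against -6.44 on wild-type and -6.37 on Tet2KD/KD.

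Cd83, a surface molecule of activated antigen-presenting cells, rose by very different amounts in the pairs. It read 2.38 on the Ezh2-/- and 1.33 on the double mutant array, against -2.20 on wild-type and -0.07 on Tet2KD/KD. The 24 inflammatory response genes tested had a median of 0.76 in Ezh2-/- minus wild-type and -0.05 in double mutant minus Tet2KD/KD, and the 28 immediate-early genes had 1.05 and -0.29. Cd83 did not pass in the 8-array (adjusted p = 0.361) or the 6-array limma fit (adjusted p = 0.380).

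**Figure D2:**
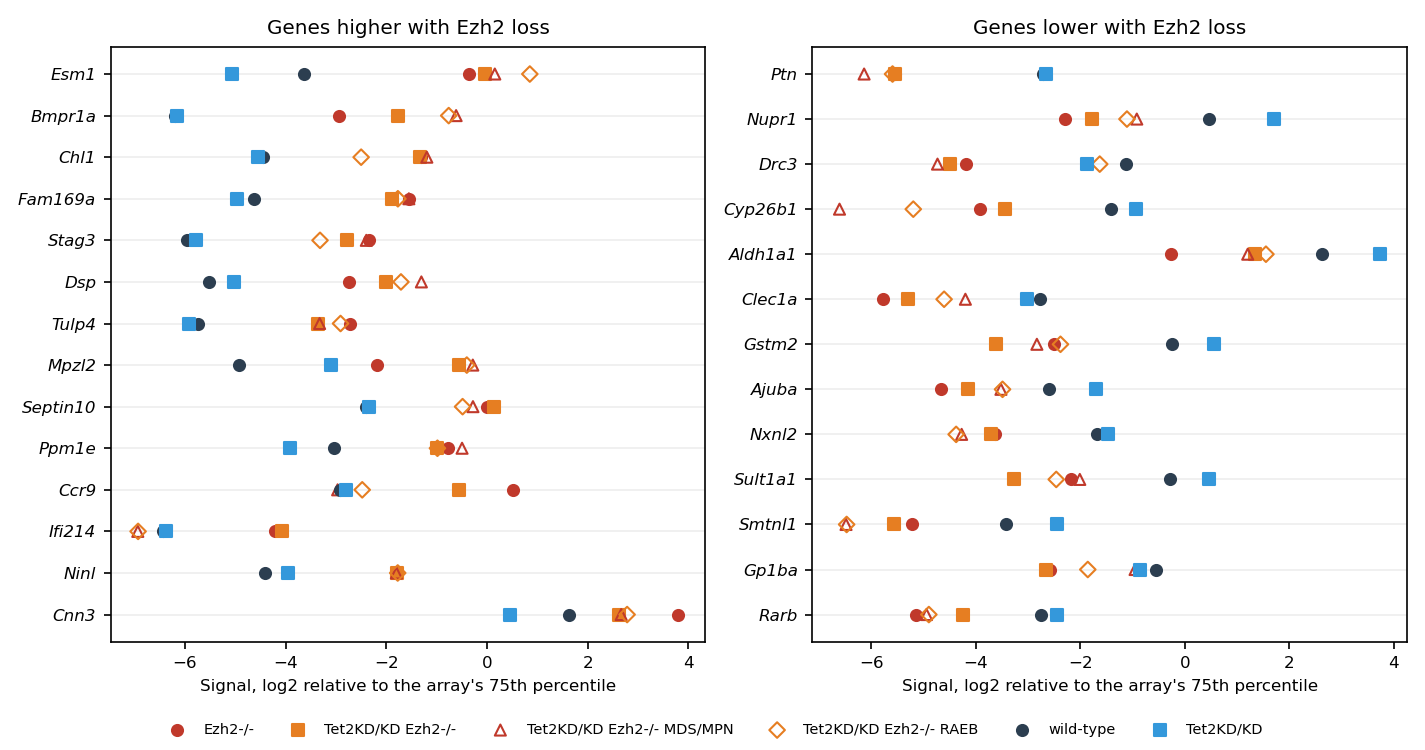
Points are the log2 signal, relative to the array's 75th percentile, of the 14 genes higher and 13 genes lower with the largest weaker-pair differences on the 6 LSK arrays; filled red and orange symbols are the Ezh2-deficient arrays, open symbols the diseased double mutant arrays and blue symbols the Ezh2-replete arrays. In every row both filled red and orange symbols lie on one side of both blue symbols. The genes were picked by their differences on these same arrays, so this separation is not separate evidence.

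Lymphoid priming genes, which multipotent progenitors switch on at low level before lymphoid commitment, were higher with Ezh2 loss. Of 21 tested, 18 were higher in both pairs and 0 lower in both, against 18.2% higher and 18.5% lower among all genes. This list and the other lists described were chosen with earlier results of these data known, so such an excess is not separate evidence. Their median difference was 0.71, made of 0.74 in Ezh2-/- minus wild-type and 0.72 in double mutant minus Tet2KD/KD, against -0.01 over all genes. In this list 6 genes were at least 2-fold higher in both pairs and 5 rose, against 0.847% and 0.909% of all genes. Ccr9, the chemokine receptor that guides progenitors to the thymus, read 0.51 on the Ezh2-/- and -0.56 on the double mutant array, against -2.92 on wild-type and -2.79 on Tet2KD/KD (limma log2 difference 2.83). Rag1 and Rag2 encode the recombinase that cuts antigen receptor genes. Rag1 read -2.25 on the Ezh2-/- and -3.04 on the double mutant array, against -5.75 on wild-type and -4.94 on Tet2KD/KD, at least 2.70-fold higher. Rag2 read -0.37 on the Ezh2-/- and -0.96 on the double mutant array, against -1.79 on wild-type and -2.38 on Tet2KD/KD. Il7r, the receptor chain for the lymphoid cytokine interleukin 7, read -0.88 on the Ezh2-/- and -1.02 on the double mutant array, against -2.82 on wild-type and -2.71 on Tet2KD/KD. In all of these the groups did not overlap, but the genes were picked for large differences in both pairs. Wfdc18 was the fifth gene that rose. Only Ccr9 of these 5 was called in both other fits; Rag1 had an adjusted p of 0.298 and Il7r of 0.196 in the 6-array limma fit. On the diseased arrays Ccr9 read -2.97 (MDS/MPN) and -2.48 (RAEB), near the Ezh2-replete arrays. B cell marker signal summed to 12.9 on the Ezh2-/- and 12.9 on the double mutant array, against 12.9 on wild-type and 13.6 on Tet2KD/KD. In these sorted populations, fewer cells of a type and less RNA per cell cannot be told apart.

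Genes of megakaryocytes and platelets were lower with Ezh2 loss. Of 24 tested, 22 were lower in both pairs (18.5% among all genes), with a median of -0.62 in Ezh2-/- minus wild-type and -0.63 in double mutant minus Tet2KD/KD. Of these genes 6 were at least 2-fold lower in both pairs and 4 fell, against 0.586% and 0.624% of all genes. Gp1ba, part of the platelet receptor for von Willebrand factor, read -2.57 on the Ezh2-/- and -2.66 on the double mutant array, against -0.55 on wild-type and -0.87 on Tet2KD/KD. Itgb3, the beta chain of the fibrinogen receptor, read -0.57 on the Ezh2-/- and -0.36 on the double mutant array, against 1.39 on wild-type and 1.35 on Tet2KD/KD. Vwf, the gene for von Willebrand factor and a marker of platelet-biased stem cells, read -0.37 on the Ezh2-/- and -0.55 on the double mutant array, against 1.54 on wild-type and 1.20 on Tet2KD/KD. Gp5, another chain of the same platelet receptor complex as Gp1ba, differed by -1.23 and -1.70 in the pairs. The groups did not overlap for any of the 4, which were picked for large differences in both of these pairs. None of the 4 was called in both other limma fits: the adjusted p was 0.0956 for Gp1ba and 0.0512 for Itgb3 over 6 arrays, 0.135 for Vwf over 8 arrays, and 0.176 (8 arrays) and 0.124 (6 arrays) for Gp5. Megakaryocyte marker signal summed to 17.2 on the Ezh2-/- and 11.0 on the double mutant array, against 30.2 on wild-type and 22.7 on Tet2KD/KD, and the part of mature cells in these differences was not tested.

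Stem cell genes were lower on balance. Of 39 haematopoietic stem cell genes tested, 25 were lower and 3 higher in both pairs, against 18.5% lower and 18.2% higher among all genes. The list's median was -0.30 in Ezh2-/- minus wild-type and -0.45 in double mutant minus Tet2KD/KD, where all genes had 0.13 and -0.15. Sult1a1, Slamf1, Vwf, Tgm2 and Hoxb5 fell, which is 5 of 39 against 0.624% of all genes called lower, and none of the 5 was called in both other limma fits. Slamf1, the CD150 antigen used to sort stem cells, read -2.59 on the Ezh2-/- and -3.82 on the double mutant array, against -1.15 on wild-type and -1.53 on Tet2KD/KD (limma adjusted p = 0.0547 over 8 arrays and 0.0653 over 6). Sult1a1, a sulfotransferase, fell by 2.82 on the log2 scale, with pair differences of -1.90 and -3.73. Procr, which encodes the stem cell surface protein EPCR, differed by -0.21 and -1.39, and the stem cell regulator Hlf by -0.13 and -0.17, without passing the test. Of the Hox transcription factor genes, 5 of the 10 HoxB genes were tested and all 5 were lower in both pairs. Hoxb2 differed by -1.72 and -2.34, Hoxb5 by -1.54 and -1.66 and Hoxb6 by -0.91 and -2.04, and these 3 fell. In the 6-array limma fit they did not pass (adjusted p = 0.260, 0.160 and 0.233), and Hoxb6 did not pass over 8 arrays either (adjusted p = 0.229). Hoxb4 differed by -0.24 and -0.43 and was not called. Of 8 HoxA genes tested 0 were called, against 1.53% of all genes. Their median was 0.11 in Ezh2-/- minus wild-type and 0.03 in double mutant minus Tet2KD/KD. None of the 18 HoxC and HoxD genes was measurable enough to be tested. Of 67 developmental transcription factors, 13 were tested and 0 were called, against 1.53% of all genes. With so few members tested, 0 calls set neither this list nor the HoxA genes apart from all genes.

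No gene of the Polycomb complexes passed the test. Of all genes 1.53% were called, so lists this short with 0 calls lie near that share. Of 11 PRC2 genes 0 were called; Ezh1, the second catalytic subunit, differed by 0.25 and -0.16. Of 18 PRC1 genes tested 0 were called, although Bmi1, a core PRC1 subunit needed for stem cell self-renewal, was 1.25 and 1.12 higher in the pairs. Among 11 receptors of the BMP and TGF-beta family only Bmpr1a was called, against 0.909% of all genes called higher. As Bmpr1a is a marker gene chosen with these data known, this count says nothing separate about the family. Bmpr2, the type II receptor that Bmpr1a pairs with, differed by -0.18 and 0.50. Of 11 targets and inhibitors of the pathway tested 0 were called, against 1.53% of all genes, and Id2 differed by 0.61 and 0.30. Of 6 desmosome genes tested, 5 were higher in both pairs, and Dsp and Pkp2 rose, against 18.2% and 0.909% of all genes. Dsp is a marker gene too, so it adds nothing separate to these counts. Pkp2, plakophilin 2, read -1.27 on the Ezh2-/- and -1.36 on the double mutant array, against -3.71 on wild-type and -2.69 on Tet2KD/KD. Among 12 oncofetal and imprinted growth genes tested, Hmga2 and Igf2r rose, against 0.909% of all genes. Hmga2, a chromatin protein of fetal stem cells, read 1.69 on the Ezh2-/- and 2.05 on the double mutant array, against -1.0 on wild-type and -0.11 on Tet2KD/KD. Pbx3, a Hox cofactor, read 1.22 on the Ezh2-/- and 1.39 on the double mutant array, against -0.61 on wild-type and 0.09 on Tet2KD/KD. Of 13 neuronal genes tested 3 rose (0.909% of all genes), which were Ppm1e, Camkv and Ncam1. Of Pkp2, Hmga2, Igf2r, Pbx3, Camkv and Ncam1, only Hmga2 passed in another limma fit (adjusted p = 0.0177 over 6 arrays and 0.244 over 8).

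**Figure D3:**
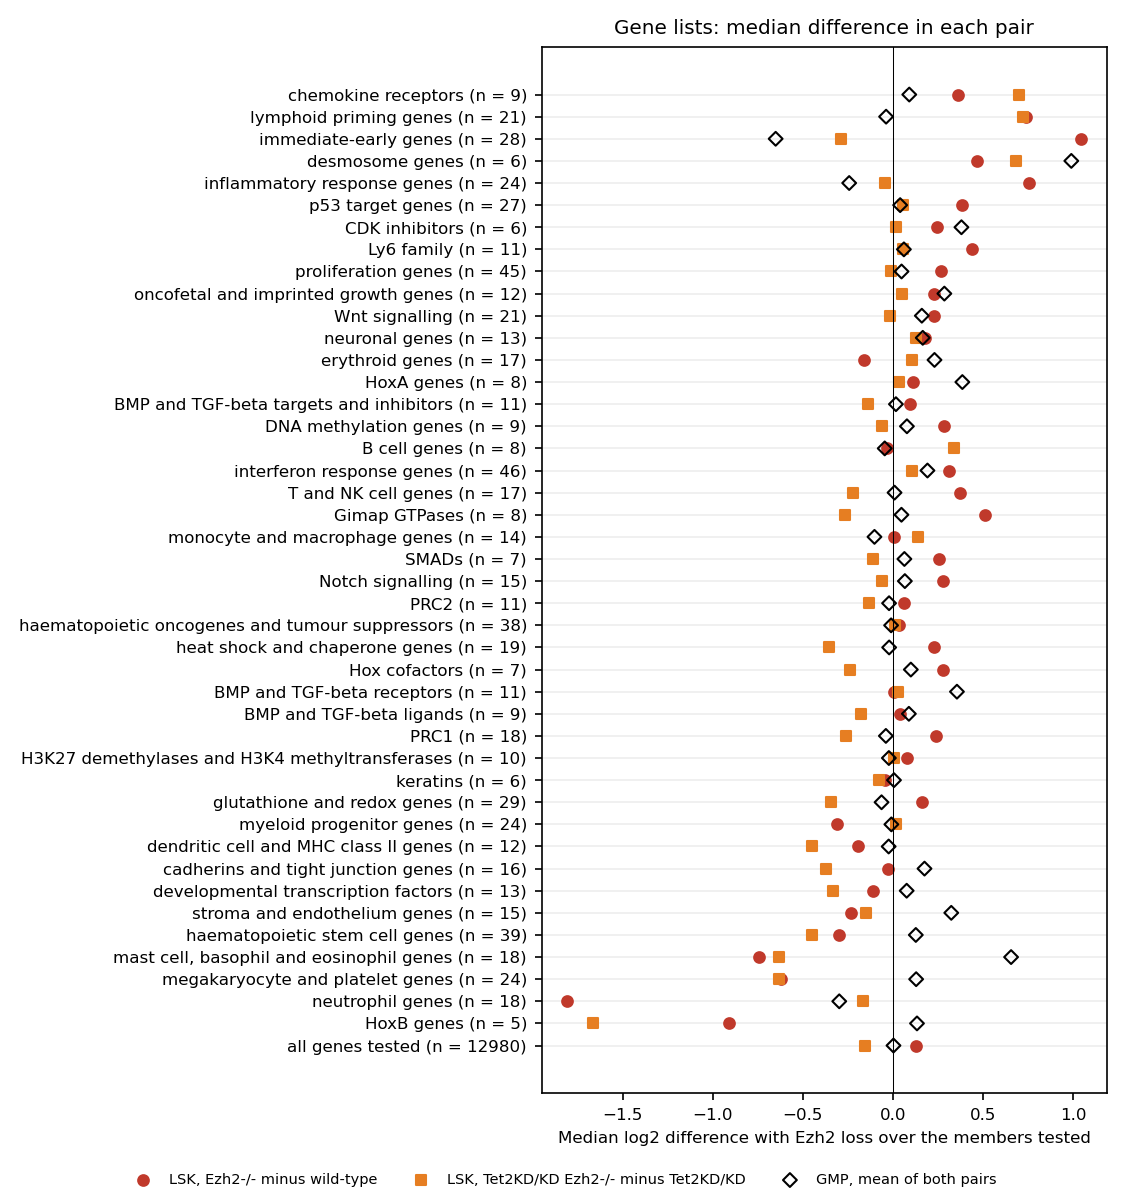
Median log2 difference with Ezh2 loss over the tested members of each list with 5 or more of them, in the Ezh2-/- minus wild-type pair (red circles), the double mutant minus Tet2KD/KD pair (orange squares) and the mean of both GMP pairs (open diamonds). Lymphoid priming genes lie at 0.74 and 0.72 and megakaryocyte and platelet genes at -0.62 and -0.63, while neutrophil genes lie at -1.81 in the first pair and -0.17 in the second.

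Several enzyme genes were among those that fell furthest. Gstm2, a glutathione S-transferase, read -2.51 on the Ezh2-/- and -3.62 on the double mutant array, against -0.24 on wild-type and 0.55 on Tet2KD/KD. Aldh1a1, which makes retinoic acid, read -0.26 on the Ezh2-/- and 1.34 on the double mutant array, against 2.62 on wild-type and 3.73 on Tet2KD/KD. Cyp26b1, which degrades retinoic acid, read -3.92 on the Ezh2-/- and -3.44 on the double mutant array, against -1.41 on wild-type and -0.93 on Tet2KD/KD. Rarb, a retinoic acid receptor, was at least 3.10-fold lower, with pair differences of -2.38 and -1.79 (limma adjusted p = 0.591 over 8 arrays and 0.0268 over 6). The last 3 genes were set together after their values were seen. Ptn, the growth factor pleiotrophin made by stem cell niches, was at background on the Ezh2-/- (-5.55) and double mutant (-5.54) arrays, against -2.71 on wild-type and -2.66 on Tet2KD/KD, at least 2.94-fold lower, and a second probe differed by -2.48 and -2.74. Nupr1, a stress-induced chromatin protein, read -2.29 on the Ezh2-/- and -1.77 on the double mutant array, against 0.47 on wild-type and 1.70 on Tet2KD/KD. Of 13 genes with the largest weaker-pair difference downward, 7 were called in all 3 fits. Nqo1, a quinone reductase, was called although 1 array carried it: it read -1.88 on the Ezh2-/- and -6.15 on the double mutant array, against -1.54 on wild-type and -0.77 on Tet2KD/KD.

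Neutrophil genes were lower than genes at large in the first pair and close to them in the second. Of 18 neutrophil genes tested, 9 were lower in both pairs and 5 fell, against 18.5% and 0.624% of all genes. Their median was -1.81 in Ezh2-/- minus wild-type and -0.17 in double mutant minus Tet2KD/KD, where all genes had 0.13 and -0.15. Camp, the granule peptide cathelicidin, read 1.06 on the Ezh2-/- and -0.61 on the double mutant array, against 3.13 on wild-type and 1.04 on Tet2KD/KD, so the groups overlapped narrowly. The 5 genes lost their calls in both other limma fits (Camp adjusted p = 0.513 over 8 arrays and 0.9998 over 6). Of 18 mast cell, basophil and eosinophil genes 11 were lower in both pairs, against 18.5% of all genes, with medians of -0.75 and -0.64. Ear1, Ear2 and Il4 fell, against 0.624% of all genes called lower. None of the 3 passed in the other limma fits: over 8 arrays the adjusted p was 0.732 for Ear1, 0.655 for Ear2 and 0.151 for Il4, and over 6 arrays 0.9998, 0.9998 and 0.0530. Mast cell and basophil marker signal summed to 3.24 on the Ezh2-/- and 2.94 on the double mutant array, against 6.14 on wild-type and 3.44 on Tet2KD/KD. Ear1, an eosinophil ribonuclease, read -3.66 on the Ezh2-/- and -3.13 on the double mutant array, against -1.33 on wild-type and -1.46 on Tet2KD/KD.

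The same comparison in GMPs uses other arrays, which carry the same crossed sex pattern: Xist differed by -5.99 and 7.24 in the GMP pairs. The labels do not say whether both cell types came from the same mice, so the GMP pairs may not be independent of the LSK pairs. Among the 12980 genes tested in LSK cells, 196 (1.51%) were at least 2-fold higher and 15 (0.116%) lower in both GMP pairs with Ezh2 loss. This GMP list leaves out genes measurable only in GMPs. Of the genes higher in LSK cells, 34 were also higher in GMPs, which is 30.9% of the LSK list and 17.3% of the GMP list. Of those lower, 5 were shared, 6.58% of the LSK and 33.3% of the GMP list. Of the 13 genes with the largest weaker-pair difference downward in LSK cells, 8 were at background on the 4 GMP arrays. A fall could not be seen there. Bmpr1a was higher by 4.84 and 5.40 in the GMP pairs and Dsp by 3.83 and 4.84. Lymphoid priming genes had a GMP median of -0.04 and megakaryocyte and platelet genes 0.13; Rag1, Il7r and Gp1ba were at background on all 4 GMP arrays. The difference between the LSK and GMP effects of Ezh2 loss was tested for each gene over 8 arrays with limma, and 0 genes passed (smallest adjusted p = 0.121, 657 at an unadjusted p under 0.05). With normexp background correction 17 passed, and with limma's trend and robust options 35, so no gene is called particular to LSK cells here.

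**Figure D4:**
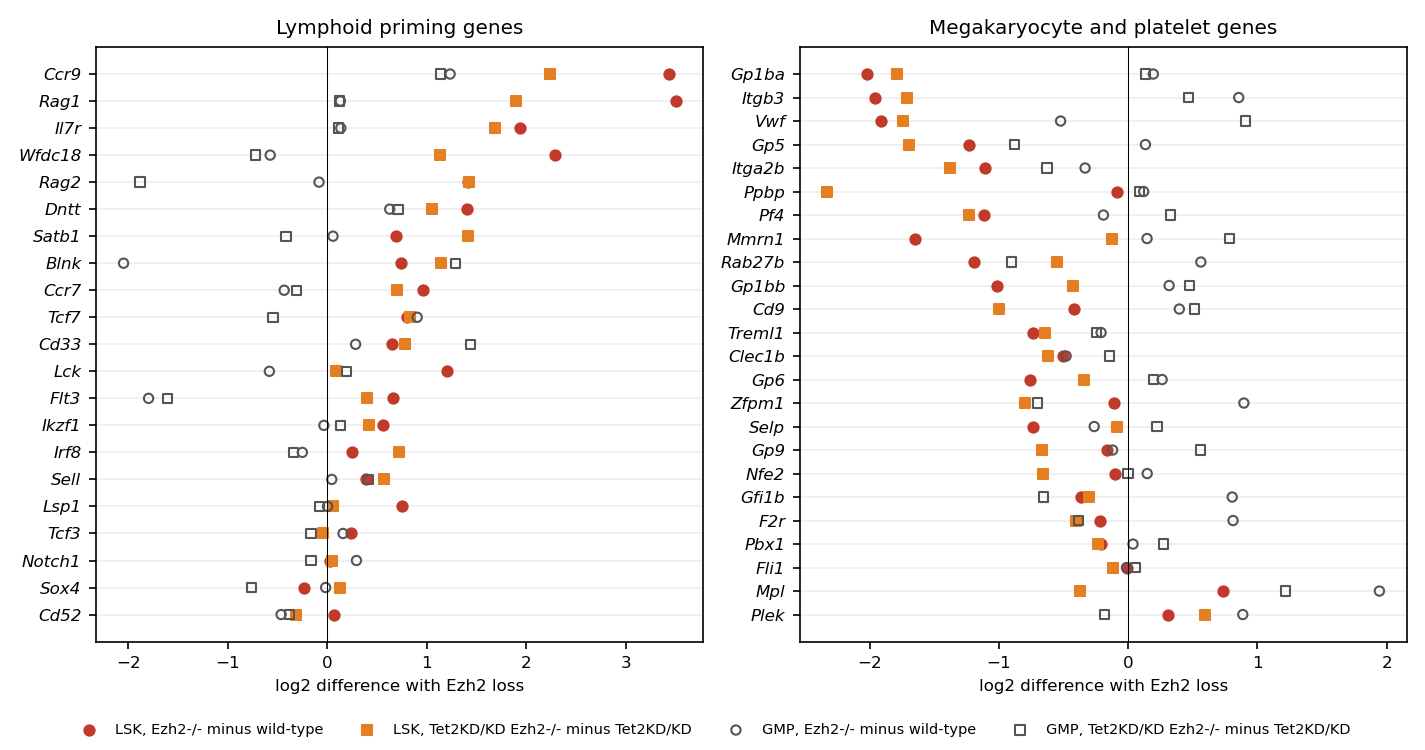
Log2 differences with Ezh2 loss for each tested lymphoid priming gene (left) and megakaryocyte and platelet gene (right), with the 2 LSK pairs as filled and the 2 GMP pairs as open symbols. Most filled symbols lie right of 0 on the left, where 18 of 21 genes were higher in both LSK pairs, and left of 0 on the right, where 22 of 24 were lower in both.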

How the data were processed

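Total RNA of sorted mouse LSK cells and GMPs was measured on one-colour Agilent arrays. Per the file headers, the deposited processed signal is a background-corrected intensity made with Feature Extraction 10.7.1.1, on a design of build mm9, and the deposited value table holds the same intensity at all 62976 spots. The deposited mean and background signals are intensities too, and the deposited columns for background, saturation, outliers and control type are flags, recorded as other. On the 4 LSK arrays compared, the 75th percentile of gene spots ran from 214.9 to 275.3, and of 59305 gene spots 48.9 to 51.4% were well above background, with 0 saturated. The number of arrays limits the precision. The 8 arrays without disease shared 1 slide, and the diseased LSK arrays another.

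The log2 processed signal minus the log2 of the array's 75th percentile was averaged over spots of a probe, without outlier flags. Of 55681 probes, 26762 were named through RefSeq accessions in a GRCm38.p6 gene table and 28919 had no symbol. The brightest probe over the 12 arrays stood for a gene, and 12980 genes with signal clear of background on 2 or more of the 4 LSK arrays were fitted in R 4.3.3 by limma 3.58.1, with terms for Tet2 and Ezh2 genotype and Benjamini-Hochberg adjustment at 0.05. The steps were tested on simulated data. Where both dimmer arrays lay at background, a fold is given as at least, the bright mean against the lowest signal well above background or the probe's own, whichever was higher.

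Named genes were Ezh2, Tet2, Bmpr1a and Dsp, up to 8 called genes per direction with the smallest p, up to 14 per direction with the largest weaker-pair difference, up to 4 members of each list described, and up to 5 per direction for LSK minus GMP, with an ordinary symbol and a probe above background on both brighter arrays. Genes named outside it, such as Procr, Hlf, Ezh1, Bmpr2 and Xist, were chosen after their values were seen. One named gene is not reported here. The members and the 45 gene lists were chosen with earlier results of these data known.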

Additional observations from a re-analysis of the deposited data

Results flagged for a closer look

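Flagged were 6 of the named genes whose effect of Ezh2 loss was opposite in sign in all pairs of the 2 cell types. As log2 differences, LSK minus GMP, they were Evc2 (-4.07), Ptn (-2.99), Drc3 (-2.95), Smtnl1 (-2.59), Nxnl2 (-2.20) and Gp1ba (-2.07). All 6 were at background on the 4 GMP arrays. Other named genes had the same pattern of signs. Rnase2a (-3.61), Krt18 (-1.27) and Cdkn1c (-1.24) did so while well above background on those GMP arrays. None of the differences passed the limma test (smallest adjusted p over all genes 0.121).

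Of 11063 probes without a gene symbol that passed the same filter, 37 (0.334%) were at least 2-fold higher and 36 (0.325%) at least 2-fold lower in both LSK pairs. They were not used in the comparisons.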

How the results depend on the processing

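The 199 limma calls became 114 with normexp background correction, 0 after quantile normalisation, 96 with no replicate block (no Tet2 term), 49 over the 8 arrays without disease and 49 over the 6 LSK arrays. Leaving out 1 LSK array from the 8-array fit gave 0 in each case, where limma assumes that the lone array varies like the others. Other settings gave 146 to 260 calls; leaving out genes of mature cell lists, added after seeing the data, gave 188. The 186 genes changed 2-fold became 43 with normexp, 109 when all 4 arrays had to be above background, 442 at 1.5-fold and 30 at 4-fold; with 1 array left out a single pair remains, which gave 717 to 736. Lists whose medians had 1 sign in both pairs numbered 24, against 30 after quantile normalisation and 21 with normexp. For LSK minus GMP, normexp gave 17 calls, the trend and robust options 35, and leaving out 1 array 0 to 149, the highest without the GMP wild-type or Ezh2-/- array. Named genes that changed sign were Krt14 (-0.10), Krt10 (-0.020), Fzd2 (-0.0049) and Ly6i (-0.032) with normexp, Ifi214 (-0.065) with a floor, Meis3 (-0.071), Bmp1 (-0.17) and Foxm1 (-0.0058) with the mean of a gene's probes, and Bmp1 (-0.46) with the brightest LSK probe. Without the LSK Tet2KD/KD or the double mutant array, Tet2 (-0.32), Fkbp10 (0.15) and Rabif (0.027) changed sign. Genes at background on 1 side kept their sign but shrank with normexp. Bmpr1a went from 3.82 to 0.79, Dsp from 2.90 to 0.54 and Stag3 from 3.31 to 0.45. Tulp4 went from 2.79 to 0.28 and Rag1 from 2.70 to 0.52. Cnn3, above background on all 4 arrays, went from 2.17 to 2.06. The causes were not tested. No paired analysis was possible because each group has 1 array and the labels share no donor number; the Tet2 term pairs genotypes. Genes at background on 1 side have only a bound, and 1 array a genotype leaves no spread between mice.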

Other observations

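Other gene groups moved less with Ezh2 loss in LSK cells. Of 27 p53 target genes tested, 14 were higher and 2 lower in both pairs, against 18.2% higher and 18.5% lower among all genes. Their medians were 0.38 in Ezh2-/- minus wild-type and 0.05 in double mutant minus Tet2KD/KD, against 0.13 and -0.15 over all genes. Of the 27 genes 1 rose, against 0.909% of all genes. That gene, Plk2, a stress-induced kinase, read 2.37 on the Ezh2-/- and 1.1 on the double mutant array, against -0.12 on wild-type and 0.69 on Tet2KD/KD, and was not called by limma over 8 or 6 arrays (adjusted p = 0.9998 in each). Phlda3, a p53-induced inhibitor of Akt signalling, read 2.07 on the Ezh2-/- and 1.93 on the double mutant array, against 0.96 on wild-type and 1.01 on Tet2KD/KD, without passing the test. Cdkn1a, the cell cycle inhibitor p21, differed by 0.66 and 0.70, also without passing. Of 45 proliferation genes tested, 16 were higher and 0 lower in both pairs, with medians of 0.27 in Ezh2-/- minus wild-type and -0.01 in double mutant minus Tet2KD/KD, and 0 were called. Of 46 interferon response genes 19 were higher and 5 lower in both pairs, and 0 were called; the shares among all genes are those given above.

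Single members of other lists also rose. Ly6k, of the Ly6 family of membrane-anchored surface proteins, read -2.14 on the Ezh2-/- and -1.69 on the double mutant array, against -5.13 on wild-type and -3.72 on Tet2KD/KD, at least 3.99-fold higher. Klrd1, a receptor chain of natural killer cells, differed by 1.60 and 1.1, and Vpreb3, a gene of early B cells, was at least 2.64-fold higher, with pair differences of 1.64 and 1.16. Neither was called in the other limma fits (adjusted p over 8 arrays 0.704 for Klrd1 and 0.341 for Vpreb3). On the RAEB LSK array Vpreb3 read 2.55 and on the MDS/MPN array -3.14.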
